A study of Homo sapiens and Mus musculus with 4 samples.

Results

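The genes described here are 8 that steer lymphocytes between blood, lymph node and tissue: the chemokine receptors CXCR4, CCR7, CXCR3, CCR4 and CCR9, the sphingosine-1-phosphate receptor S1PR1, the transcription factor KLF2 and the selectin ligand SELPLG. They were chosen by name, with earlier results of these data known, and the mouse genes were those with the same symbol. In this way 8 of 32738 human genes and 8 of 27998 mouse genes were followed, 16 of 60736 in all. Each one was found. The study sequenced bulk messenger RNA of 4 established lymphocyte lines, with 1 library per line, as a reference for single-cell methods. Jurkat and TALL104 are human T-cell leukaemia lines, described by the study as CD4+ and CD8+ T cells. EL4 came from a mouse T-cell lymphoma and is described as CD4+, and IVA12 is a hybridoma of the mouse that the study describes as B cells. None of the lines carried a treatment or an engineered allele by its label. Each library stands for 1 culture of a transformed line that was bought from a repository, and the lines were grown in different media, TALL104 with interleukin-2. Line, medium and culture cannot be told apart in these data.

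Chemokine receptors and S1PR1 are G protein-coupled receptors that turn an external gradient into directed movement. In the textbook account, a naive T cell enters a lymph node from the blood by rolling along the vessel wall and stopping when CCR7 meets CCL19 or CCL21, and it leaves again through S1PR1, which senses sphingosine-1-phosphate in lymph and blood. KLF2 is a zinc finger factor of resting T cells that switches on the gene for S1PR1. CXCR3, CCR4 and CCR9 direct activated or imprinted cells to inflamed tissue, skin and gut, CXCR4 holds cells near CXCL12, and SELPLG encodes PSGL-1, the main protein carrier of the sugars that P-selectin binds.

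Levels are given as FPKM, which counts sequenced fragments after scaling to gene length and library size. Reads were recovered from the steps between FPKM values and totalled 25286728 to 34783047 per library, and between 9596 and 10857 genes of the line's own species reached 1 FPKM, taken here as detected. All intervals are at 95%, reflect only how many reads of a gene 1 library counted, and hold no culture-to-culture spread, because no line had a second library and no test could be made. In bulk RNA, fewer cells with a transcript and less transcript per cell cannot be told apart. Lines were compared within a species as the ratio of FPKM + 1, with 1.5-fold as the threshold. The listed T-cell markers summed to 1092 FPKM (Jurkat), 941 (TALL104), 1319 (EL4) and 13.4 FPKM (IVA12), and the listed B-lineage markers to 64.9, 41.0, 0.904 and 2039 FPKM in the same order. In IVA12, Jchain, Mzb1, Cd79b, Ms4a1 and Blnk were detected, while the defining B-cell markers Pax5 and Cd79a were at 0.156 and 0.0543 FPKM. Rows of the other species gave the background of misassigned reads. Of the 32 such values for these genes, 17 were 0, and the highest was 0.124 FPKM, on 7 reads.

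CXCR4 was the only one of the 8 genes that was detected in all 4 lines. Each of the other genes marked some lines and was at or near background in others. Between the human lines, 3 of the 8 genes were over 1.5-fold higher in Jurkat, S1PR1, KLF2 and CCR4, against 13.8% of all human genes. A further 3 were over 1.5-fold higher in TALL104, CCR7, CXCR3 and SELPLG, against 11.4% of all human genes. Among genes with at least 1 FPKM in either human line, 34.2% were higher in Jurkat and 28.4% in TALL104. Of the 8 genes, 7 were in that class. Between the mouse lines, 3 of the 8 genes were over 1.5-fold higher in EL4, Ccr7, Ccr4 and Ccr9, against 9.75% of all mouse genes, and 3 in IVA12, Cxcr3, S1pr1 and Selplg, against 11.2%. Among mouse genes with at least 1 FPKM in either line, which held 7 of the 8, the shares were 23.8% for EL4 and 26.5% for IVA12. The median log2 ratio of the 8 genes was 0.27 for Jurkat over TALL104 and -0.15 for EL4 over IVA12, while the median over all genes was 0 in both pairs. The genes therefore divided equally by direction in each pair.

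**Figure D1:**
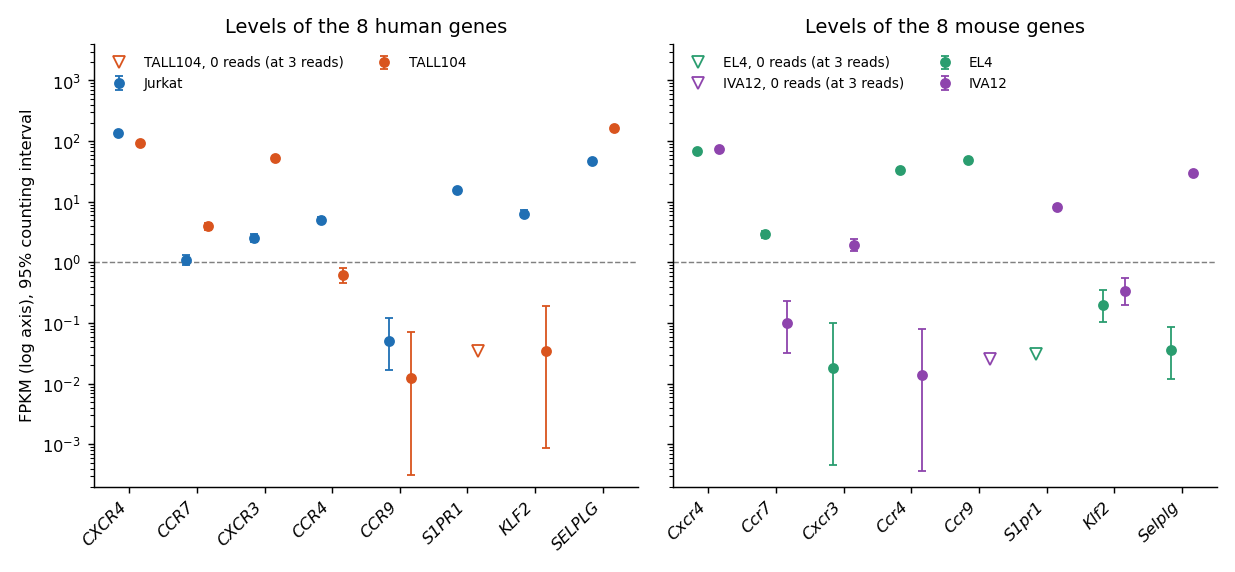
Level of each gene in FPKM on a log axis, human genes on the left in Jurkat and TALL104 and mouse genes on the right in EL4 and IVA12; bars are 95% counting intervals of 1 library, open triangles mark genes with 0 reads at the level of 3 reads, and the dashed line is 1 FPKM. CXCR4 lies between 67.8 and 134 FPKM in all 4 lines, and the other genes are far apart between the lines of at least 1 species.

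The order of the genes within each line differed. In Jurkat the levels ran from CXCR4 at 134 FPKM through SELPLG, S1PR1, KLF2, CCR4, CXCR3 and CCR7 to CCR9 at 0.0512 FPKM, and the intervals of the neighbours KLF2 (5.52 to 7.21 FPKM) and CCR4 (4.67 to 5.54 FPKM) overlapped. In TALL104 SELPLG was first at 168 FPKM, before CXCR4, CXCR3, CCR7 and CCR4, and the last 3 genes, KLF2, CCR9 and S1PR1, had at most 1 recovered read each and could not be ordered. In EL4 the order was Cxcr4, Ccr9, Ccr4 and Ccr7, with Klf2, Selplg, Cxcr3 and S1pr1 below 1 FPKM. The intervals of Selplg, Cxcr3 and S1pr1 overlapped there. In IVA12 the order was Cxcr4, Selplg, S1pr1 and Cxcr3, with Klf2, Ccr7, Ccr4 and Ccr9 below 1 FPKM, and Klf2 (0.196 to 0.556 FPKM) overlapped with Ccr7 (0.0325 to 0.233 FPKM). A T-cell line and a B-lineage line of the mouse thus shared a single gene of the 8 at 1 FPKM. With detection at 0.1 FPKM, 5 genes were detected in each mouse line and Klf2 was also shared.

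Promoter sequence was available in the RefSeq table for 6 of the 8 human genes, and the 250 bases upstream of the annotated start are shown for 4 of them, the 3 genes that were higher in Jurkat and 1 that was higher in TALL104, so that windows of genes with unlike levels can be compared. They are written 5′ to 3′ on the strand of the gene, from GRCh38.p14, a later build than the hg19 of the expression table: S1PR1 at chr1:101236769-101237018 (plus strand), KLF2 at chr19:16324576-16324825 (plus), CCR4 at chr3:32951394-32951643 (plus) and CXCR3 at chrX:71618512-71618761 (minus). Capitals mark matches on either strand to the CACCC box that KLF factors bind, to the forkhead motif GTAAACA, to the MEF2 motif, to TATAAA, to the T-box motif TCACACC and to the GATA-type motif AGATAA. A match to the KLF box can overlap one to the T-box motif.
S1PR1: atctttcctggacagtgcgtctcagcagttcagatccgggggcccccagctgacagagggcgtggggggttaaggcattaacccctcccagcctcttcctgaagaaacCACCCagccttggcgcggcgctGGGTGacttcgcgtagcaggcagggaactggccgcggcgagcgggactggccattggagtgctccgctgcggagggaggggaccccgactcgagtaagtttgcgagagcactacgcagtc
KLF2: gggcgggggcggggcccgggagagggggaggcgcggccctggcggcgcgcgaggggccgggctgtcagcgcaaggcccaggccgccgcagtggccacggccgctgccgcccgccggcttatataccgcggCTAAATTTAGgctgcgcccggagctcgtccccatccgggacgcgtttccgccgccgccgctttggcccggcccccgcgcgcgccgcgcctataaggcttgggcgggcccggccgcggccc
CCR4: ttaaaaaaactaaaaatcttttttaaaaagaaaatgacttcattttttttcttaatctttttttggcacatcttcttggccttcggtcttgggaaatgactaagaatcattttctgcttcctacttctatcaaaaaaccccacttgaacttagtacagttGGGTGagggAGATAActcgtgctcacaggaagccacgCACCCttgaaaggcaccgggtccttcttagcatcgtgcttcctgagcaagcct
CXCR3: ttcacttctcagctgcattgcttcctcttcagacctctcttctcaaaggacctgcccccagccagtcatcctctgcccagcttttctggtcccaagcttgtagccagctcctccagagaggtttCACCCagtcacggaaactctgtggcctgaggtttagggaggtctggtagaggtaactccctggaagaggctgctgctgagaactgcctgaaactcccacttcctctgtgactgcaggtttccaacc
The KLF2 window was 80% G and C and held the MEF2 motif from 120 to 111 bases before the start, which reads as a match on both strands. The S1PR1 window, at 64.4% G and C, held CACCC on the plus strand of the gene 142 to 138 bases before the start and on the other strand 120 to 116 bases before it. The CCR4 window, at 39.6% G and C, held 2 CACCC matches and 1 AGATAA match, and the CXCR3 window, at 54.8%, held 1 CACCC match. Of 35116 windows of the same length in the table, 54.7% held CACCC, 9.17% AGATAA and 2.8% the MEF2 motif. TATAAA was in 10.7%, GTAAACA in 2.98% and TCACACC in 2.76% of these windows and in none of the 4 shown. A match is a run of letters and was not tested for binding.

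CXCR4, the receptor for CXCL12 that retains cells in bone marrow and lymphoid tissue, lies on human chromosome 2 (ENSG00000121966, hg19, 136871919 to 136876747, minus strand). Its level was 134 FPKM in Jurkat (interval 131 to 137, 10363 reads) and 94.9 FPKM in TALL104 (92.5 to 97.3, 5982 reads). Mouse Cxcr4, on chromosome 1 (ENSMUSG00000045382, mm10, 128588199 to 128592293, minus strand), was at 67.8 FPKM in EL4 (65.7 to 70.0, 3943 reads) and 75.3 FPKM in IVA12 (72.8 to 77.9, 3444 reads). It ranked high in every library, above 98.2% of the detected genes in Jurkat and 97.6% in TALL104, and above 91.9% in EL4 and 92.9% in IVA12. The FPKM ratio was 1.41 for Jurkat over TALL104 (1.37 to 1.46) and 0.901 for EL4 over IVA12 (0.860 to 0.943). Both were under the 1.5-fold threshold, and the counting intervals of both lay away from 1.

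CCR7, which brings naive and central memory cells into the lymph node, was a low transcript in every line that had it. The human gene, on chromosome 17 (ENSG00000126353, hg19, 38710021 to 38721724, minus strand), was at 1.10 FPKM in Jurkat (0.891 to 1.34, 96 reads) and 3.94 FPKM in TALL104 (3.49 to 4.43, 280 reads). The mouse gene, on chromosome 11 (ENSMUSG00000037944, mm10, 99144196 to 99155077, minus strand), was at 2.91 FPKM in EL4 on 185 reads and 0.09997 FPKM in IVA12 on 5 reads. Jurkat stood just above the detection limit, and its interval crossed 1 FPKM. TALL104 over Jurkat was 3.58-fold in FPKM (2.83 to 4.56), with a log2 ratio of FPKM + 1 of -1.23 ± 0.10 (counting SE) for Jurkat over TALL104. EL4 over IVA12 was 29.1-fold in FPKM (12.2 to 90.7), with a log2 ratio of 1.83 ± 0.10. The IVA12 level was no higher than the highest value of these genes in rows of the other species. The mouse Ccr7 row itself had 0 reads in Jurkat and TALL104.

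SELPLG was the highest of the 8 genes in TALL104. The human gene, on chromosome 12 (ENSG00000110876, hg19, 109015671 to 109027670, minus strand), was at 46.3 FPKM in Jurkat (44.9 to 47.6, 4575 reads) and 168 FPKM in TALL104 (165 to 171, 13527 reads). In the mouse, where the gene lies on chromosome 5 (ENSMUSG00000048163, mm10, 113818536 to 113832644, minus strand), EL4 had 0.0364 FPKM on 5 reads and IVA12 29.8 FPKM on 3223 reads. EL4 was thus the line below detection, at a level no higher than that of the human rows in the mouse libraries. The mouse Selplg row itself was lower in the human libraries, at 0.0202 FPKM in Jurkat and 0.0165 FPKM in TALL104. TALL104 over Jurkat was 3.63-fold in FPKM (3.51 to 3.75), a log2 ratio of -1.84 for Jurkat over TALL104 on FPKM + 1. IVA12 over EL4 was 820-fold in FPKM (351 to 2526), a log2 ratio of -4.89 for EL4 over IVA12. A long noncoding gene overlaps human SELPLG on the other strand, at 0.469 FPKM in Jurkat and 0.986 FPKM in TALL104, and the strand setting of the counting is not given in the sources used here.

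CXCR3, the receptor for the interferon-induced ligands CXCL9, CXCL10 and CXCL11 on effector T cells, was the most unequal of the chemokine receptors among the 8 genes in the human pair. It lies on chromosome X (ENSG00000186810, hg19, 70835766 to 70838361, minus strand), with 2.52 FPKM in Jurkat (2.15 to 2.94, 164 reads) and 52.4 FPKM in TALL104 (50.5 to 54.4, 2774 reads). The mouse gene, also on chromosome X (ENSMUSG00000050232, mm10, 101731535 to 101734269, minus strand), had 0.018 FPKM in EL4 on 1 read and 1.96 FPKM in IVA12 on 86 reads. TALL104 was the high line, and in the mouse pair the B-lineage line had the transcript at a low level while EL4 was at background. TALL104 over Jurkat was 20.8-fold in FPKM (17.7 to 24.4), with a log2 ratio of -3.92 for Jurkat over TALL104. The EL4 ratio rests on 1 read. IVA12 over EL4 was 109-fold in FPKM with an interval of 19.1 to 4368, and the log2 ratio of EL4 over IVA12 on FPKM + 1 was -1.54.

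CCR4, the receptor for CCL17 and CCL22 on skin-homing, type 2 helper and regulatory T cells, was higher in Jurkat than in TALL104. Mouse Ccr4 was higher in EL4 than in IVA12, a contrast of a T-cell line with a B-lineage line. The human gene, on chromosome 3 (ENSG00000183813, hg19, 32993136 to 32997841, plus strand), was at 5.09 FPKM in Jurkat (4.67 to 5.54, 548 reads) and 0.616 FPKM in TALL104 (0.462 to 0.803, 54 reads). The mouse gene, on chromosome 9 (ENSMUSG00000047898, mm10, 114490316 to 114504916, minus strand), was at 33.9 FPKM in EL4 on 3034 reads and 0.0142 FPKM in IVA12 on 1 read. The TALL104 level was below detection but above every value of these genes in rows of the other species. Jurkat over TALL104 was 8.27-fold in FPKM (6.25 to 11.2), a log2 ratio of 1.91. EL4 over IVA12 was 2386-fold in FPKM with an interval of 428 to 94287, again on 1 read in the low line, and the log2 ratio was 5.10.

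CCR9, the receptor for CCL25 on thymocytes and gut-homing T cells, was detected in EL4 alone. The human gene, on chromosome 3 (ENSG00000173585, hg19, 45925917 to 45944666, plus strand), was at 0.0512 FPKM in Jurkat on 5 reads and 0.0126 FPKM in TALL104 on 1 read. The mouse gene, on chromosome 9 (ENSMUSG00000029530, mm10, 123678439 to 123784330, plus strand), was at 49.6 FPKM in EL4 (48.5 to 50.8, 7522 reads) and 0 in IVA12, where 3 reads would be 0.0252 FPKM. Human CCR9 was at background in both lines, and the interval of its FPKM ratio ran from 0.456 to 193. EL4 was at least 1972-fold higher than IVA12 against a floor of 3 reads in that library, with a log2 ratio of 5.66 on FPKM + 1. Both species have LZTFL1 on the other strand, overlapping CCR9. Mouse Lztfl1 was at 22.1 FPKM in EL4 and 2.33 in IVA12. Whether the pair exchanged reads was not tested.

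S1PR1, the egress receptor, was detected in 1 line of each species, Jurkat and IVA12, and had no read in the other. The human gene, on chromosome 1 (ENSG00000170989, hg19, 101702421 to 101709269, plus strand), was at 15.6 FPKM in Jurkat (14.9 to 16.4, 1671 reads) and 0 in TALL104, where 3 reads would be 0.0345 FPKM. The mouse gene, on chromosome 3 (ENSMUSG00000045092, mm10, 115710433 to 115715072, minus strand), was at 0 in EL4, where 3 reads would be 0.0306 FPKM, and 8.18 FPKM in IVA12 (7.55 to 8.84, 630 reads). Jurkat was at least 454-fold higher than TALL104, and IVA12 at least 267-fold higher than EL4, against the floor of 3 reads per library. The log2 ratios on FPKM + 1 were 4.06 for Jurkat over TALL104 and -3.20 for EL4 over IVA12. No read was assigned to S1PR1 in either library of the other species, in either direction.

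KLF2, whose promoter is shown above with its MEF2 match, was detected in Jurkat alone. The human gene, on chromosome 19 (ENSG00000127528, hg19, 16435637 to 16439496, plus strand), was at 6.33 FPKM in Jurkat (5.52 to 7.21, 222 reads) and 0.0350 FPKM in TALL104 on 1 read. Mouse Klf2, on chromosome 8 (ENSMUSG00000055148, mm10, 72319033 to 72321656, plus strand), was at 0.202 FPKM in EL4 (0.104 to 0.353, 12 reads) and 0.343 FPKM in IVA12 (0.196 to 0.556, 16 reads). Jurkat had both KLF2 and S1PR1 and TALL104 neither, whereas IVA12 had S1pr1 with Klf2 below detection. Jurkat over TALL104 was 181-fold in FPKM with an interval of 32.1 to 7178, and the log2 ratio was 2.82 ± 0.10. The reads of KLF2 are the smallest whole solution, so the single TALL104 read may stand for more than 1. The 2 mouse lines were within each other's counting error, with an FPKM ratio of 0.590 for EL4 over IVA12 (0.255 to 1.33).

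**Figure D2:**
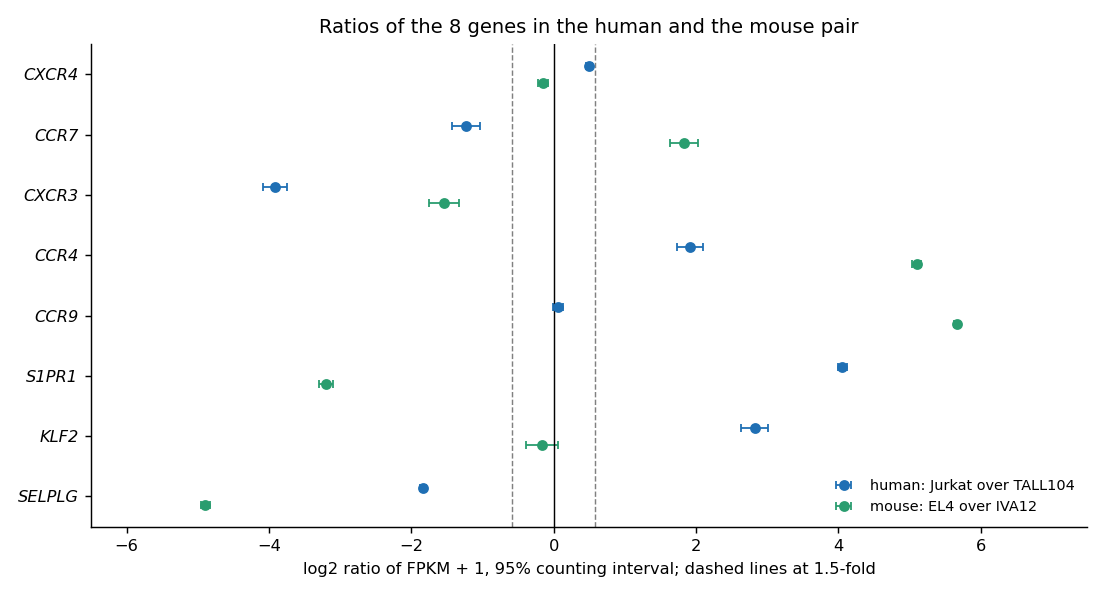
Log2 ratio of FPKM + 1 for each gene, blue for Jurkat over TALL104 and green for EL4 over IVA12, with 95% counting intervals; positive values are higher in Jurkat or EL4 and the dashed lines mark 1.5-fold. CCR4 lies to the right and CXCR3 and SELPLG to the left in both pairs, and CCR7 and S1PR1 lie on opposite sides.

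Set side by side, the pairs gave the same side for 3 genes that passed 1.5-fold in both, CCR4 at 1.91 and 5.10, CXCR3 at -3.92 and -1.54 and SELPLG at -1.84 and -4.89. CCR7 at -1.23 and 1.83 and S1PR1 at 4.06 and -3.20 were on opposite sides. The human pair sets 2 T-cell lines against each other and the mouse pair a T-cell line against a B-lineage line, so the pairs are different contrasts and their ratios were not tested against each other.

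In the wider receptor family, TALL104 had more chemokine receptors than Jurkat. Human and mouse counts and sums are only set side by side here. Of 18 chemokine receptor genes, the 5 above among them, 10 were detected in TALL104, 6 each in Jurkat and EL4, and 3 in IVA12. Their levels summed to 410.2 FPKM in TALL104, 149.7 in Jurkat, 167 in EL4 and 86.5 in IVA12. In the human pair 9 of the 18 were over 1.5-fold higher in TALL104 and 2 in Jurkat, CCR4 and CX3CR1, with a list median of -0.65 on the log2 scale. The background for this and the later lists is the share of all genes past 1.5-fold and the median over all genes, both given above. For lists of mostly detected genes, the higher shares and the medians among genes with at least 1 FPKM in either line apply. Of the 18 human receptors, 12 reached 1 FPKM in either line. A list median of 0 can fall on a gene with no reads in either line. CCR2, a receptor of monocytes and memory T cells, was at 0.146 FPKM in Jurkat and 78.4 in TALL104. CXCR6, found on tissue-resident and effector T cells, was at 0 and 66.6 FPKM. TALL104 also had CCR1, a receptor of inflammatory chemokines, at 20.7 FPKM against 0.126 in Jurkat. CCR6, the receptor for CCL20, was at 0.204 FPKM in Jurkat and 21.4 in TALL104, CCR8 at 3.31 and 21.9, and CCR3, an eosinophil receptor, at 0.0158 and 1.75. CX3CR1, the fractalkine receptor, was at 2.76 FPKM in Jurkat and 0.0290 in TALL104.

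Of the 18 mouse chemokine receptors, 4 were higher in EL4 and 2 in IVA12, with a list median of 0, and 12 did not pass. Beside Ccr4, Ccr7 and Ccr9, EL4 had Cxcr6 at 11.0 FPKM against 0 in IVA12. IVA12 had Ccr10, a receptor of antibody-secreting cells that home to mucosa, at 8.73 FPKM against 1.06 in EL4. CXCR5, which guides B cells and follicular helper T cells into follicles, was below 0.1 FPKM in all 4 lines. Of 5 atypical receptors, which bind or scavenge chemokines without moving the cell, ACKR3, a second receptor for CXCL12, was at 2.29 FPKM in Jurkat and 0.797 in TALL104, and CCRL2 at 0.845 and 4.77. Mouse Ackr1 was at 2.86 FPKM in EL4 and 0 in IVA12, and Ccrl2 at 0.635 and 0.944. The median log2 ratio of this list was 0 for the human and 0.01 for the mouse lines.

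**Figure D3:**
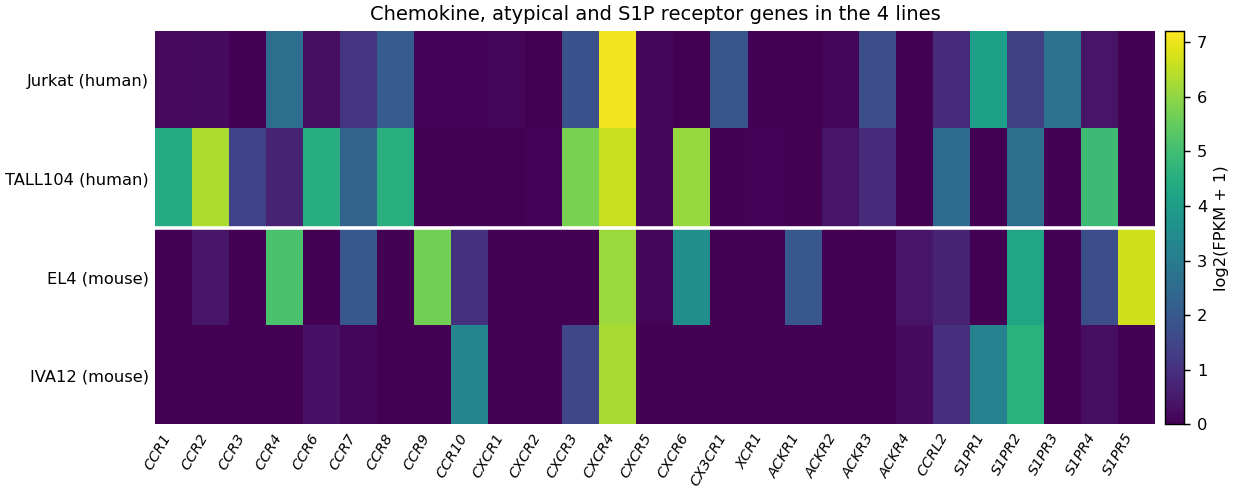
Level of 17 chemokine receptors, 5 atypical receptors and 5 S1P receptors in the 4 lines, as colour on the scale log2(FPKM + 1), with human lines above the white line and mouse lines below. CXCR4 is bright in every line, and TALL104 has more bright chemokine receptors than Jurkat. S1PR1 is dark in TALL104 and EL4, where S1PR4 (29.8 FPKM) and S1pr5 (102 FPKM) are bright.

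Other receptors of the S1PR1 family were detected both in lines with S1PR1 and in lines without it. S1PR4, a lymphocyte S1P receptor, was at 0.340 FPKM in Jurkat and 29.8 in TALL104, and S1PR3 was at 5.65 and 0.0201. S1PR2, which opposes migration toward S1P, was detected in all 4 lines, at 1.57 and 5.08 FPKM in the human lines Jurkat and TALL104 and at 18.0 and 23.2 FPKM in the mouse lines EL4 and IVA12. S1pr5, the egress receptor of natural killer cells, was at 102 FPKM in EL4 and 0.0316 in IVA12. S1pr4 was at 2.32 and 0.199 FPKM in the same lines. With the other lymphocyte guidance receptors, the list held 12 human genes, 3 higher in Jurkat, 6 in TALL104 and a median of -0.57, and 11 mouse genes, 5 higher in EL4, 1 in IVA12 and a median of 0. GPR174, a receptor for lysophosphatidylserine, was at 100.4 FPKM in Jurkat and 34.7 in TALL104. P2RY10 was at 0.319 and 30.9 FPKM, and mouse P2ry10 was at 33.2 in EL4 and 0.703 in IVA12.

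CD69, the activation marker that draws S1PR1 off the cell surface, was at 5.05 FPKM in Jurkat and 30.8 in TALL104, and mouse Cd69 at 3.62 in EL4 and 0.00608 in IVA12. In the human pair the higher CD69 line had no S1PR1 reads, and in the mouse pair EL4 had more Cd69 and no S1pr1 reads. These are RNA levels, whereas the action of CD69 named here is on receptor protein at the cell surface. Their relation was not tested. Of 20 genes for G proteins and receptor desensitisation, 10 were higher in TALL104 and 1 in Jurkat (list median -0.54), and 10 were higher in EL4 and 3 in IVA12 (median 0.40). In this list 19 human and 16 mouse genes reached 1 FPKM in either line of their species. Among all genes that did, the shares were 28.4% for TALL104, 34.2% for Jurkat, 23.8% for EL4 and 26.5% for IVA12. The listed gene that was higher in Jurkat was GRK3, a kinase that turns receptors off, at 52.6 FPKM against 2.38 in TALL104. RGS1, which speeds the end of G protein signals, was at 0.00698 FPKM in Jurkat and 10.5 in TALL104. The highest genes were RGS10 at 33.8 and 107 FPKM and the β subunit GNB1 at 85.5 and 63.3 in Jurkat and TALL104, and Gnai3 at 266 and 39.8 and Gnb1 at 106 and 68.9 in EL4 and IVA12. Arrb1, an arrestin, was at 9.25 FPKM in EL4 and 1.19 in IVA12.

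The motility list, which joins receptors to actin, had more genes higher in TALL104 than in Jurkat and more in EL4 than in IVA12. Of 12 genes, 6 were higher in TALL104 and 2 in Jurkat (list median -0.64), and 9 were higher in EL4 and 1 in IVA12 (median 1.04). All 12 reached 1 FPKM in at least 1 line of each species. Among all genes that did, the shares were 28.4% for TALL104, 34.2% for Jurkat, 23.8% for EL4 and 26.5% for IVA12. DOCK8, an activator of CDC42 that keeps migrating lymphocytes intact, was at 0.0104 FPKM in Jurkat on 5 reads and 74.0 in TALL104, and mouse Dock8 was at 30.3 in EL4 and 1.39 in IVA12. PREX1, an activator of RAC, was at 8.95 FPKM in Jurkat and 199.9 in TALL104. CORO1A, an actin regulator that T cells need for egress, was at 128 and 230.4 FPKM, and mouse Coro1a at 163 in EL4 and 60.4 in IVA12. Myo1g, a membrane myosin, was at 18.6 FPKM in EL4 and 0.347 in IVA12. Cdc42 was the highest mouse gene of the list, at 174 and 110.1 FPKM.

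**Figure D4:**
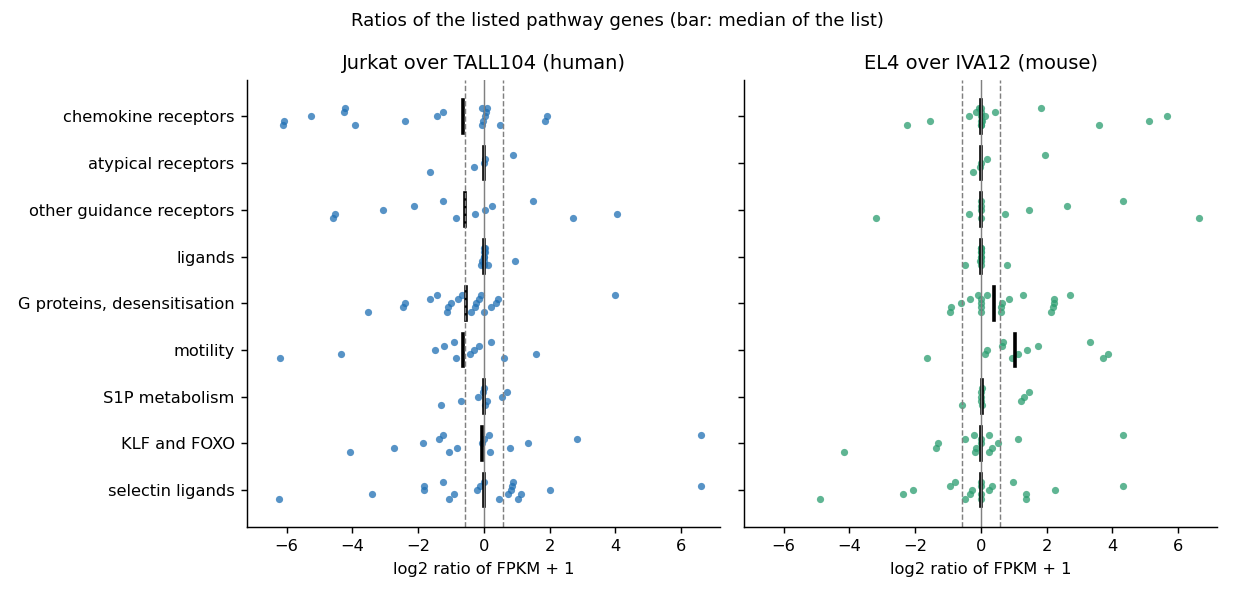
Log2 ratio of FPKM + 1 for each gene of 9 pathway lists, Jurkat over TALL104 on the left and EL4 over IVA12 on the right; each point is 1 gene, black bars are list medians and dashed lines mark 1.5-fold. The motility list has its median at -0.64 on the left and 1.04 on the right, while the ligand and S1P metabolism lists have medians between 0 and 0.02.

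Transcripts for the listed ligands were scarce. The list held ligands of CXCR4, CCR7, CXCR3, CCR4 and CCR9 and adhesion genes of vessels. Ligands of the other receptors, such as CCR2 or CXCR6, were not in it. Of 12 human ligand and vascular adhesion genes, none reached 1 FPKM in either line, and the highest was SELP, for P-selectin, at 0.947 FPKM in Jurkat and 0 in TALL104. Of 11 mouse genes, only Ccl25, the CCR9 ligand, reached 1 FPKM, at 2.02 in EL4 and 0.749 in IVA12, and Cxcl10 was at 0.0138 and 0.404. CCL25 in Jurkat was at 0.0877 FPKM on 1 read. The ligand lists had 1 gene that was higher in Jurkat and 1 in EL4, no gene higher in TALL104 or IVA12, and medians of 0.

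Of 9 genes that make, export or destroy S1P, 6 human and 4 mouse genes reached 1 FPKM in either line of their species. Of all 9, 1 was higher in Jurkat and 2 were higher in TALL104, while EL4 had 3 that were higher and IVA12 had 0, with medians of 0 and 0.02. The S1P lyase gene SGPL1 was at 13.2 FPKM in Jurkat and 15.1 in TALL104, and the phosphatase gene SGPP1 at 11.4 and 10.7. Mouse Sgpl1 was at 19.7 FPKM in EL4 and 7.33 in IVA12, and Sgpp1 at 27.2 and 11.0. PLPP1, a lipid phosphatase, was at 3.91 FPKM in Jurkat and 11.0 in TALL104, with mouse Plpp1 at 12.0 and 3.75, and SPHK1, a kinase that makes S1P, was at 1.13 FPKM in Jurkat and 0.304 in TALL104.

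Among the KLF and FOXO genes around KLF2, 4 of 15 were higher in Jurkat and 7 in TALL104 (list median -0.07), and 2 were higher in EL4 and 3 in IVA12 (median -0.01). Of the 15, 13 human and 12 mouse genes reached 1 FPKM in either line. The shares among all such genes were 34.2% for Jurkat, 28.4% for TALL104, 23.8% for EL4 and 26.5% for IVA12. Jurkat had KLF2, S1PR1 and CCR7 together, TALL104 had CCR7 without the other two, EL4 had Ccr7 with no S1pr1 read, and IVA12 had S1pr1 alone of these genes. KLF6, a broadly expressed relative of KLF2, was at 3.89 FPKM in Jurkat and 81.3 in TALL104. Mouse Klf13 was at 10.9 FPKM in EL4 and 29.8 in IVA12, Mef2d at 23.4 and 33.2, and Mef2c, a MEF2 factor that B cells use, at 0.00396 and 16.9.

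SELPLG works as a selectin ligand only when glycosyltransferases and sulfotransferases have modified it. Of 19 genes of the selectin ligand list, 8 were higher in Jurkat, 7 were higher in TALL104, and each mouse line had 5 that were higher, with medians of 0. Of the 19, 16 human and 13 mouse genes reached 1 FPKM in either line. The shares among all such genes were 34.2% for Jurkat, 28.4% for TALL104, 23.8% for EL4 and 26.5% for IVA12. FUT7, the fucosyltransferase that completes the selectin-binding sugar in leukocytes, was below 0.3 FPKM in all 4 lines, at 0.111 and 0.273 in Jurkat and TALL104 and at 0.277 and 0 in EL4 and IVA12. GCNT1, which builds the branched core of that sugar, was at 2.44 FPKM in Jurkat and 11.1 in TALL104, and at 0 in both mouse lines. CD44, an alternative selectin ligand and hyaluronan receptor, was at 0.0257 FPKM in Jurkat on 9 reads and 76.4 in TALL104, and mouse Cd44 at 22.4 in EL4 and 96.5 in IVA12. Galnt1, which starts O-linked chains, was at 58.5 FPKM in EL4 and 21.9 in IVA12.

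Likeness was measured over the 15550 symbols that occur once in each species, as the distance between log2(FPKM + 1) values over the 4 libraries. With only 4 points, 1 per line, it describes levels and nothing more. CXCR4 was nearest to TMA7 (distance 0.43), SRP14 (0.44) and the proteasome subunit gene PSMA7 (0.53), all of which were between 60.8 and 126 FPKM in every line. S1PR1 was near ELOVL4 (0.38) and RAP1GAP2 (0.73), which were at 13.2 and 10.7 FPKM in Jurkat and at 0.0464 and 0.0048 FPKM in TALL104. KLF2 was nearest to TTC28 (0.37), CDC42BPA (0.40) and NOTCH3 (0.41), and CCR9 to SLC22A3 (0.19), MPP4 (0.25) and RGS13 (0.30), which were at 40.5 to 56.4 FPKM in EL4 and under 0.1 elsewhere. CCR7 was nearest to SERPINB9 (0.60), TSPOAP1 (0.73) and SGMS1 (0.75), and CXCR3 to TAGAP (0.60), the granzyme gene GZMM (1.08) and PLAC8 (1.16). CCR4 was nearest to SMO (0.70), the interleukin-7 receptor gene IL7R (0.86) and TUSC3 (0.96). SELPLG had no close neighbour, with ITGB1 at 1.59, CAPG at 1.75 and RESF1 at 2.22.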

How the data were processed

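Bulk messenger RNA libraries of 4 cell lines, 1 per line, were analysed. According to the study's methods and the labels, stranded paired reads of 101 bases were aligned with STAR 2.5.1b to a joint hg19 and mm10 reference and counted per gene with featureCounts 1.6.3. Cell Ranger 1.2.0 is also listed in the submitters' processing notes, and the study's methods use that name and number for the joint reference. The authors deposited the values as FPKM in 1 table, with 0 further columns per library. The strand setting of the counting and the gene lengths are not given in the sources used here.

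FPKM values step by 1 read over gene length and library total. The totals were the commonest whole value for genes with 1 read, and a gene's reads were the smallest whole solution at a relative tolerance of 1e-10, multiplied where the annotated exon length was a multiple of the recovered length. A missed factor would make reads too few and intervals too wide. Intervals were exact Poisson for levels, exact binomial for ratios and by the delta method for log2 ratios. A gene at 0 was given a floor of 3 reads per library. PCR copies are not independent, so intervals and floors cover counting error only. With 1 library per line no test was run. Ratios were taken on FPKM + 1, which shrinks those of low genes. Symbols and positions were from GENCODE 44 mapped to hg19 and M21 on mm10, and promoters from RefSeq on GRCh38.p14.

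The genes, lists and settings were chosen with earlier results of these data known. Genes named were the 8 members, in each list and species the 2 highest and the 2 with the largest ratio, every chemokine receptor at 1 FPKM or more and the 3 genes nearest each member, and some of these are not reported here. CD69, FUT7, GCNT1, CXCR5 and the S1P receptors beyond this rule were named after their values were seen. Alternatives were pseudocounts of 0.1 and 0.01, scaling by the median ratio or to equal own-species totals without mitochondrially encoded genes, a 2-fold threshold, a minimum of 1 FPKM, ratios of reads with their interval, and detection at 0.1 and 5 FPKM. Marker lists for myeloid and for stromal, epithelial and red cells summed to 1.18 and 0.483 FPKM in Jurkat, 3.17 and 1.28 in TALL104, 4.08 and 11.8 in EL4 and 22.8 and 71.1 in IVA12, where Cd68 was at 22.5 and Epcam at 69.7. The calculation was tested on simulated data. Python 3.11.15, NumPy 2.4.6, pandas 2.3.3, SciPy 1.17.1 and matplotlib 3.10.9 were used.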

Additional observations from a re-analysis of the deposited data

Results flagged for a closer look

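Rows of a species carried reads in libraries of the other species, where no transcript of that species should be, and 3 of the 32 such values for the 8 genes were above the 3 reads that a count of 0 allows. Human CXCR4 was at 0.124 FPKM on 7 reads in IVA12. Human SELPLG was at 0.0547 FPKM on 5 reads in EL4 and 0.0835 FPKM on 6 reads in IVA12. All other such values were on 3 reads or fewer. Over all genes, rows of the other species made up 0.175% of the summed FPKM in IVA12. The share was 0.0474% in Jurkat, 0.0457% in TALL104 and 0.0379% in EL4. The source of these reads was not tested.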

How the results depend on the processing

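The number of the 8 genes past the threshold was 6 in each pair and stayed at 6 with a pseudocount of 0.1, both scalings, a 2-fold threshold and ratios of reads whose interval lay past 1.5-fold. With a pseudocount of 0.01 it was 7 in each pair, because CCR9 passed in the human and Klf2 in the mouse pair, both below detection. Of 64 ratios of single genes under another pseudocount or scaling, 30 moved by more than their counting error, 13 under each smaller pseudocount and 2 under each scaling, and 0 changed sign. Detection at 5 FPKM left 5, 3, 3 and 3 of the 8 genes in Jurkat, TALL104, EL4 and IVA12, against 7, 4, 4 and 4 at 1 FPKM. At 0.1 FPKM the counts were 7, 5, 5 and 5. Over the 121 human and 119 mouse pathway genes the calls numbered 70 and 54, and 53 and 39 at 2-fold. Scaling by the median ratio moved the human pair by 0.11 on the log2 scale and the mouse pair by -0.02. No paired analysis was possible because each line had 1 library. Without replicates, leaving out a library left nothing to compare, and differences between cultures of a line are outside these values.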

Other observations

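Beyond the comparisons above, several receptor genes that were higher in TALL104 lay close together on the chromosome. On human chromosome 3, between 45925917 and 46454488 (hg19), 7 receptor genes, chosen after their values were seen, lie in 1 block that begins with CCR9. Of these, 5 were over 1.5-fold higher in TALL104 and 0 in Jurkat, with a median log2 ratio of -1.65 for Jurkat over TALL104. The shares of all human genes were 11.4% for TALL104 and 13.8% for Jurkat. Among genes with at least 1 FPKM in either line they were 28.4% and 34.2%. CXCR6, CCR1, CCR3, CCR2 and CCRL2 passed the threshold, and CCR9 and XCR1 were below 0.1 FPKM in both lines. Those that passed, apart from CCRL2, were already counted in the chemokine receptor list above. Of 2 other genes of the block, FYCO1 was at 5.81 FPKM in Jurkat and 20.3 in TALL104, and LZTFL1 at 5.71 and 4.34. The matching mouse block on chromosome 9, between 123678439 and 124113557 (mm10), held 6 of these receptor genes, of which Ccr9 and Cxcr6 were higher in EL4 and 0 in IVA12. The shares of all mouse genes were 9.75% for EL4 and 11.2% for IVA12. Ccr1, Ccr3, Ccr2 and Xcr1 were under 0.4 FPKM in both mouse lines. Of 4 other genes of the mouse block, 1 was higher in EL4 and 1 in IVA12. Lztfl1 was at 22.1 FPKM in EL4 and 2.33 in IVA12, and Fyco1 at 1.67 and 4.55.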
